A study of Mus musculus with 5 samples.

Results

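The comparison set the liver RNA of the NZW/LacJ mouse strain against that of the RIIIS/J strain, which were 2 of the 5 samples of the series. NZW/LacJ is the New Zealand White inbred strain, 1 parent of the lupus-prone New Zealand hybrid mice, and RIIIS/J is an inbred strain known from studies of blood clotting. Each sample was a pool of liver RNA from 3 untreated males aged 10 weeks, and all 5 strains shared sex, age, tissue and lack of treatment. The other 3 samples were pools of C57BL/6J, BALB/CByJ and FVB/NJ liver made in the same way. The study measured liver expression in strains to follow up an expression quantitative trait locus (eQTL, a place in the genome whose genotype goes with the level of a transcript). Total RNA was hybridised to 1 Affymetrix array per strain, so no replicate exists, no test is possible for any value below, and the spread between mice of a strain cannot be seen behind a pool.

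The liver makes most proteins of the blood, and its hepatocytes handle lipids, amino acids, glucose, bile acids and foreign compounds. Inflammatory cytokines switch hepatocytes to the acute phase response, in which serum amyloid A and related secreted proteins are made in large amounts, while interferons raise antiviral genes and the genes that present antigens. Many liver genes also follow the hour of the day through the circadian clock, and others differ between males and females through the rhythm of growth hormone. Inbred strains carry different alleles of many of these genes, and gene families such as the cytochromes P450 vary between strains in copy number and sequence.

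Where a gene had several probe sets the one of highest average intensity across the arrays stood for it, which gave 18194 genes. Values are linear intensities in arbitrary units, and a gene counted as detected above a floor of 8.41. That floor is the 95th percentile of 86 probe sets of taste, smell and vomeronasal receptor genes, which liver is taken not to express. On at least 1 of the arrays compared 11282 genes were detected, of which 30 belonged to a list of acinar pancreas genes that was set aside, leaving 11252. NZW/LacJ had 11122 detected genes and RIIIS/J had 11074. The 3′ to 5′ ratio of the Actb control was 3.73 in NZW/LacJ and 2.76 in RIIIS/J, against 3.80 to 4.98 in the other strains, and that of Gapdh was 0.954 and 0.901. All 13 measured hepatocyte markers were detected on both arrays, with no member 2-fold apart and a median log2 difference, NZW/LacJ minus RIIIS/J, of -0.16.

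The RIIIS/J array held RNA of the exocrine pancreas, which lies beside the liver. Of 37 measured acinar genes 7 were under the floor on both arrays, 20 passed it only in RIIIS/J and 10 on both. The summed intensity of the 37 measured genes was 121451 in RIIIS/J, 1373 in NZW/LacJ and 1221 to 2646 in the others. Prss2, a trypsinogen, read 14380 in RIIIS/J and 12.8 in NZW/LacJ. Among genes outside that list, Dmbt1 (266) and Tff2 (172), which encode secreted proteins of mucous epithelia, were above the floor only in RIIIS/J. Of the endocrine pancreas list 1 of 8 measured genes was detected, and none of the 5 detected duct and cholangiocyte genes was 2-fold apart. What this RNA adds to genes outside the acinar list was not tested.

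After values under the floor had been raised to it, 490 of the 11252 genes (4.35%) were at least 2-fold higher in NZW/LacJ and 344 (3.06%) were at least 2-fold lower, 834 (7.41%) in all. At 4-fold the counts were 120 (1.07%) and 76 (0.675%). The median log2 difference over all genes was 0.01, with a 5th percentile of -0.78 and a 95th percentile of 0.92. The deposited values were exactly equal on both arrays in 741 genes (6.59%). Probe sets of the same gene gave log2 differences that lay a median of 0.32 apart over 8515 such pairs, with a 95th percentile of 1.43. That gap lies between probe sets on the same arrays and pools. It does not measure the spread between arrays, pools or mice, which these data cannot show. At the threshold itself, Parp14 (194 against 96.7) was just inside and H2-D1 (6789 against 3395) just outside.

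**Figure D1:**
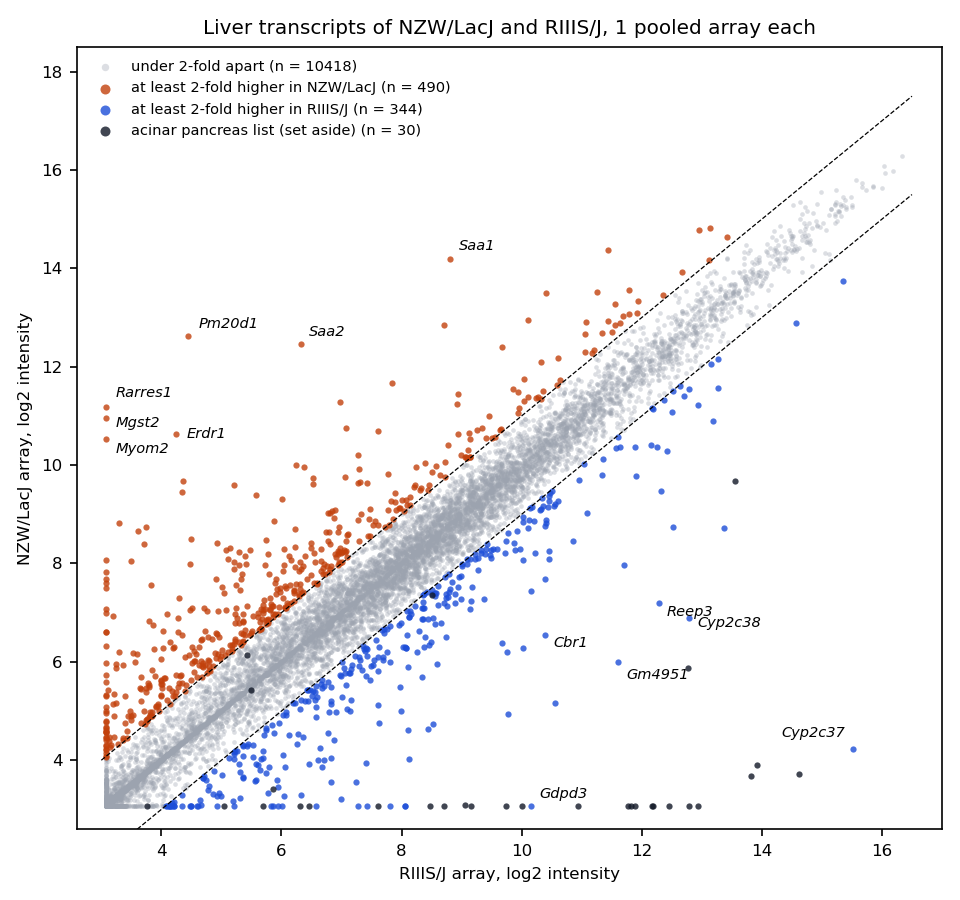
Log2 intensity of each detected gene on the NZW/LacJ array (vertical axis) against the RIIIS/J array (horizontal axis), 1 pooled array each, with values under the floor drawn at it. Dashed lines mark 2-fold differences. Orange points (490) are at least 2-fold higher in NZW/LacJ, blue points (344) at least 2-fold higher in RIIIS/J, grey points lie between, and black points are the 30 acinar pancreas genes set aside, most of which lie at the lower right.

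The same count for the other pairs of strains ran from 577 genes (5.12%) for C57BL/6J against BALB/CByJ to 1933 (16.7%) for FVB/NJ against RIIIS/J. Against C57BL/6J, 7.57% of genes were apart for NZW/LacJ and 9.3% for RIIIS/J, and against BALB/CByJ 8.73% and 11.1%. These pairs share arrays with each other. Of the 490 genes higher in NZW/LacJ, all 3 other strains lay nearer to NZW/LacJ in 251 (51.2%) and nearer to RIIIS/J in 107 (21.8%). Of the 344 lower genes the split was even, with 114 (33.1%) nearer to NZW/LacJ and 115 (33.4%) nearer to RIIIS/J. RIIIS/J had the lowest value of the 5 arrays in 23.9% of all genes, while NZW/LacJ had the lowest in 17.7%.

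Both arrays stood on 1 side of the other strains for most clock genes, but they did not match each other. Of 21 detected clock genes, 4 were above all 3 other strains on both arrays and 12 were below them. This pair of arrays was chosen for a similar state of the clock genes, so these counts describe the choice and are no finding. In what follows, the values of the other strains are in the order C57BL/6J, BALB/CByJ, FVB/NJ. Arntl, the activator at the core of the clock, read 68.1 in NZW/LacJ and 156 in RIIIS/J, against 13.7, 14.1 and 14.1. Nfil3, a repressor in antiphase to Dbp, read 644 and 840 against 222, 274 and 229. Usp2, a deubiquitinase under clock control, was at 55.3 and 23.4 against 914, 718 and 930, and Wee1, a cell cycle kinase, at 25.6 and 24.2 against 115, 161 and 179. The arrays were nevertheless 2-fold or more apart in 9 of the 21 genes, 6 higher and 3 lower in NZW/LacJ. Dbp, a clock output transcription factor, read 1023 in NZW/LacJ and 75.5 in RIIIS/J, a 13.6-fold difference that a second probe set shared (222 against 9.78), while the others had 6439, 8951 and 4940. Nr1d1, the repressor REV-ERB alpha, was 136 and 26.2 (5.21-fold) against 314, 223 and 95.4. Noct, a night-peaking phosphatase once taken for a deadenylase, went the other way, with 24.5 in NZW/LacJ and 277 in RIIIS/J. The arrays were thus alike in the side on which they lay for 16 of the clock genes, but not in the levels of Dbp, Nr1d1 and Noct. Hour of collection is not given in the labels, and its part in any difference below was not tested.

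Of the genes furthest apart in favour of NZW/LacJ, some were low in RIIIS/J alone. Pm20d1, a secreted enzyme that makes N-acyl amino acids, read 6300 in NZW/LacJ and 21.8 in RIIIS/J, against 3301, 5044 and 6292, so that only RIIIS/J was low (289-fold). Its second probe set gave 1285 against 4.80. Rarres1, a retinoid-responsive gene, was at 2308 in NZW/LacJ and under the floor at 3.94 in RIIIS/J, at least 274-fold apart, with 933, 2720 and 1154 elsewhere. Hnmt, the methyltransferase that inactivates histamine, read 820 against 20.6 (39.8-fold), and the others held 695, 530 and 482. Erdr1, a gene of the pseudoautosomal region, stood at 1596 against 19 (84.0-fold), with 1534, 1383 and 1651 in the other strains. Tmem123, a membrane mucin-like protein, was 777 against 36.8 with 598, 409 and 1268 elsewhere, and a second probe set gave a log2 difference of 4.25. Gsn, the actin-severing protein gelsolin, was 266 against 11.3 (23.6-fold), but its further probe sets gave log2 differences of only 0.19 to 1.81. Apart from Gsn, the RIIIS/J array alone was low in these genes. For Gsn NZW/LacJ was also below the other strains, which held 464, 447 and 1379. The Gsn probe set with the difference of 0.19 read 52.8 in NZW/LacJ and 46.2 in RIIIS/J, against 168, 177 and 612.

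Another group was high on the NZW/LacJ array alone. Mgst2, a microsomal glutathione transferase, read 1978 in NZW/LacJ and 6.83 to 7.11 in the other 4 strains, all under the floor, which made the difference from RIIIS/J at least 235-fold. Myom2, a protein of the muscle M-band, read 1482 against 5.49, at least 176-fold, with 4.95 to 5.59 elsewhere. A pair of further Myom2 probe sets were also high only there, at 295 and 255. Just 3 genes of the skeletal and heart muscle list were detected at all, and no other member of that list was 2-fold apart. Defb1, an antimicrobial beta-defensin, read 405 against 12.2, with 13.8, 13.4 and 11.8 in the other strains. Pilra, an inhibitory receptor of myeloid cells, was 426 against 13.4, and the others had 20.3 to 30.6. Cxcl14, a chemokine, was 268 and Akr1c18, the 20-alpha-hydroxysteroid dehydrogenase that inactivates progesterone, was 228, both under the floor in RIIIS/J and in the other 3 strains. The second Cxcl14 probe set differed by only 0.75 on the log2 scale. Ctse, the aspartic protease cathepsin E, read 2493 in NZW/LacJ and 125 in RIIIS/J against 113, 482 and 251. Its second probe set was higher by 1.99. That probe set was not high in NZW/LacJ alone, reading 134 there, 33.6 in RIIIS/J and 19.7, 239 and 786 elsewhere. In total 18 of the 490 higher genes were under the floor in all 3 other strains.

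**Figure D2:**
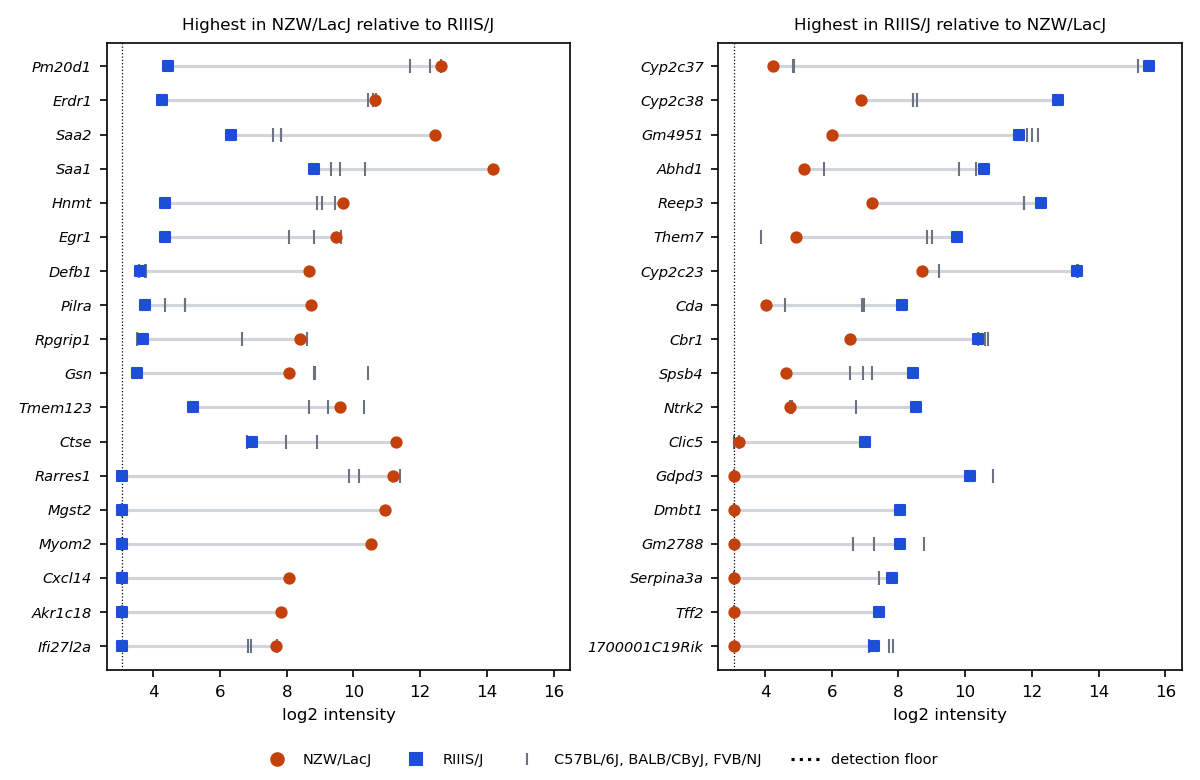
Log2 intensity of the 18 genes furthest apart in each direction among those whose probe sets had the same sign, 12 measured on both arrays and then 6 with 1 array under the floor. Orange circles are NZW/LacJ, blue squares RIIIS/J, grey ticks the other 3 strains, and the dotted line the detection floor. For Pm20d1, Erdr1, Hnmt and Rarres1 the ticks lie with NZW/LacJ, for Mgst2, Myom2 and Defb1 with RIIIS/J, and for Cyp2c37 they are split.

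The largest difference in the other direction, and of all genes compared, was in Cyp2c37, a cytochrome P450 of the Cyp2c arachidonic acid hydroxylases, at 18.7 in NZW/LacJ and 47003 in RIIIS/J. The log2 difference was -11.29 and C57BL/6J shared the high state (37234), while BALB/CByJ (29.5) and FVB/NJ (28.9) shared the low one. Its neighbour in the family, Cyp2c38, was at 118 against 7063 (59.7-fold), and here RIIIS/J alone was high, since the others had 349, 349 and 376. Cyp2c23, an epoxygenase of arachidonic acid, split the strains in another way, with 420 in NZW/LacJ and 599 in BALB/CByJ against 10558 in RIIIS/J, 10741 in C57BL/6J and 10473 in FVB/NJ. Each of these Cyp2c genes had 1 probe set, and members of this family are alike in sequence, so signal from a related copy cannot be told apart.

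Several other genes were low in NZW/LacJ alone. Gm4951, a member of the immunity-related GTPase family, read 63.9 in NZW/LacJ and 3119 in RIIIS/J (48.8-fold), against 4636, 3688 and 4127. Cbr1, the carbonyl reductase of quinones and prostaglandins, was 94.0 against 1343 (14.3-fold), with 1343, 1636 and 1542 elsewhere. Akr1c12, an aldo-keto reductase, was 250 against 3343 (13.4-fold), with 3276 to 4284 in the other strains. Reep3, which shapes the endoplasmic reticulum, read 146 against 4972, and its 5 further probe sets all had the same sign at -6.08 to -0.23, of which 2 passed 2-fold. Gm2788 and 1700001C19Rik were under the floor only in NZW/LacJ, at least 31.5-fold and at least 18.3-fold below RIIIS/J. A second probe set of 1700001C19Rik was lower as well, with a log2 difference of -2.79.

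Other lower genes were shared with some strains, stood out in RIIIS/J, or had the other strains between the arrays compared. Gdpd3, a lysophospholipase D, was under the floor in NZW/LacJ (4.67), C57BL/6J and BALB/CByJ but read 1142 in RIIIS/J and 1827 in FVB/NJ, at least 136-fold apart. Abhd1, a hydrolase, was 35.6 in NZW/LacJ and 54.0 in C57BL/6J against 1499 in RIIIS/J, 1273 in BALB/CByJ and 905 in FVB/NJ. Them7, a thioesterase family member, read 30.6 against 872, with FVB/NJ also low at 14.8. Serpina3a, a serine protease inhibitor, was at its background in NZW/LacJ (7.37) and read 224 in RIIIS/J, with BALB/CByJ alone also raised at 171. Cda, the cytidine deaminase, was 16.2 against 278, and the others spread from 24.4 to 125. Clic5, a chloride intracellular channel protein, was 127 in RIIIS/J and 5.57 to 9.39 on the other 4 arrays, and both further probe sets were lower in NZW/LacJ, with log2 differences of -3.30 and -1.93. Spsb4, an adaptor of an E3 ubiquitin ligase, read 24.9 against 345, with 92.6 to 148 elsewhere, and a second probe set differed by -3.90.

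The inducible acute phase genes were higher in NZW/LacJ. Of 31 detected members 10 were at least 2-fold higher and 2 lower, 25 differed in that direction, and the median log2 difference was 0.39. Over all genes compared 4.35% were 2-fold higher and 3.06% lower, with a median of 0.01. The same shares stand beside the counts of each list below. NZW/LacJ had the highest of the 5 values in 20 of the 31, where 17.9% of all genes did. The lists and their members were chosen with earlier results of these data known. Here and in the lists below, an excess over all genes is therefore a description and lends no support. The serum amyloid A genes Saa1 and Saa2, which lie next to each other and encode near-identical apolipoproteins of inflamed plasma, led the list. Their reference promoters are shown because the probe sets of both genes read high in NZW/LacJ. They are the 250 bases before each RefSeq start on GRCm38.p6, written 5′ to 3′ on the strand of the gene, and capitals mark the bases that differ between them in an alignment of 251 positions, of which 238 (94.8%) were identical.
Saa1, chr7:46742981-46743230, minus strand: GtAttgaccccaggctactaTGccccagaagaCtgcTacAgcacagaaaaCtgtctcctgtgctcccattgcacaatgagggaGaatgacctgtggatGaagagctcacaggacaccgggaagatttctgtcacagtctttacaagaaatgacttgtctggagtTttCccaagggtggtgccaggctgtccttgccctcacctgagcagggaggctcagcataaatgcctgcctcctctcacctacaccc
Saa2, chr7:46751583-46751832, plus strand: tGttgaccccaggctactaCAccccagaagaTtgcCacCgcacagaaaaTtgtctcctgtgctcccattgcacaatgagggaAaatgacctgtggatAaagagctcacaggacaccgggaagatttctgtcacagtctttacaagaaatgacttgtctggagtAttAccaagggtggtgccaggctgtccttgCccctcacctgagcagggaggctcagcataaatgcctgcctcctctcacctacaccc

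Saa1 read 18764 in NZW/LacJ and 449 in RIIIS/J (41.8-fold), against 766, 642 and 1310, and a second probe set gave 14837 against 444. Saa2 read 5624 against 80.1 (70.2-fold), against 193, 225 and 225. NZW/LacJ was thus far above all 4 other strains for the probe sets of both genes, and RIIIS/J was the lowest. No further probe set of Saa2 was detected. The genes encode near-identical proteins, so signal from the other copy cannot be told apart. Saa3, the macrophage and fat form, read 286 and 41.8, but BALB/CByJ was higher than NZW/LacJ at 362. Lcn2, the iron-chelator-binding lipocalin, was 261 against 37.1 with 14.1 to 33.0 elsewhere. Apcs, the amyloid P component, was 21309 against 2782, and Lrg1, a leucine-rich secreted glycoprotein, was 11611 against 1356, with RIIIS/J lowest of the 5 in both. Orm2 (776 against 350) and Orm3 (45.1 against 13.9), genes of the acid glycoproteins, were highest in NZW/LacJ and next highest in RIIIS/J. Socs3, a feedback inhibitor of interleukin 6 signalling, read 352 against 110, and its further probe sets were higher by 0.86 and 2.56. Cxcl1, a neutrophil chemokine outside the list that was picked for its value, was 360 against 22.6.

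Some members did not follow. Lbp, the lipopolysaccharide-binding protein, was 1351 in NZW/LacJ and 4537 in RIIIS/J, with RIIIS/J the highest of the 5 and a second probe set at a log2 difference of -3.19. Il6st, the shared receptor chain gp130, was 573 against 1306, but its 3 further probe sets gave 0.00 to 0.24. Hp (haptoglobin, 32791 against 25333) and Crp (C-reactive protein, 8893 against 6791) were under 2-fold apart. Of 21 detected complement genes 3 were at least 2-fold higher in NZW/LacJ, namely C9 (28298 against 7937), C6 (4391 against 1287) and Hc, the gene of C5 (18320 against 8899). No complement gene was 2-fold lower, and none of the 24 coagulation genes was 2-fold apart in either direction. For Hc, FVB/NJ was below RIIIS/J at 3858.

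Interferon-stimulated genes were mostly higher in NZW/LacJ. Of 40 detected members 10 were at least 2-fold higher and 1 lower, 34 differed in that direction, and the median log2 difference was 0.46. RIIIS/J was the lowest of the 5 arrays in 20 of them, where it was so in 23.9% of all genes. NZW/LacJ was the highest in 6, where it was so in 17.9% of all genes. Ifi27l2a, an interferon-induced membrane protein, read 206 in NZW/LacJ and 7.81 in RIIIS/J, at least 24.5-fold apart, with 114, 122 and 208 elsewhere. Ifit3, an antiviral RNA-binding family member, was 189 against 14.2 (13.3-fold) with 204, 138 and 49.0. Bst2, tetherin, which holds budding virus at the cell surface, was 2807 against 491 (5.71-fold) with 2659, 2085 and 1319. Usp18, which removes ISG15 from proteins, was 78.3 against 16.3, and FVB/NJ was lower still at 10.6. Ifit1 (37.3 against 17), Rtp4 (281 against 120), Samd9l (26.8 against 13.3) and the chemokine Cxcl9 (147 against 71.2) differed by 2.02 to 2.35-fold. Trim30a was 51.1 against 16.8, but its second probe set differed by -0.42, and Trim30d was under the floor in NZW/LacJ and at 36.9 in RIIIS/J. The transcription factors of the pathway were close, Irf7 at 35.6 and 22.6 and Irf1 at 275 and 260.

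The interferon-stimulated response element, searched on both strands as a pair of GAAA repeats with any 2 bases between them, was present in the 250 bases before the start of 4 of the 6 higher genes with a reference promoter (Bst2, Ifit1, Ifit3 and Trim30a). It was also in the 1 lower member, Trim30d, and in 6 of 24 that were not 2-fold apart, and 2.98% of 32851 promoter windows of that length held it. Bst2, Ifit1 and Ifit3 are printed with the element in capitals, while Trim30a, whose probe sets disagreed, is left out. In Bst2 a pair of matches overlap, and a match is a description of the reference sequence only.
Ifit1, chr19:34640639-34640888, plus strand: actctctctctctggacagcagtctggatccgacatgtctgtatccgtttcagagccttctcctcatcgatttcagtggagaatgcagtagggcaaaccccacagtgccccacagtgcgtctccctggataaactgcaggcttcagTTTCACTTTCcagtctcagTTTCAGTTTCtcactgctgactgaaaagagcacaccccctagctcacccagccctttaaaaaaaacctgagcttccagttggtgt
Ifit3, chr19:34583279-34583528, plus strand: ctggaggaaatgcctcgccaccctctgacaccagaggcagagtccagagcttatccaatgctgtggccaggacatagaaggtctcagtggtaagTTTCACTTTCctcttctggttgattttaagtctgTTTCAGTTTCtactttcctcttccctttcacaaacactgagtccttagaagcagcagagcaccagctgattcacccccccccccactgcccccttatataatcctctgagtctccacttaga
Bst2, chr8:71537473-71537722, minus strand: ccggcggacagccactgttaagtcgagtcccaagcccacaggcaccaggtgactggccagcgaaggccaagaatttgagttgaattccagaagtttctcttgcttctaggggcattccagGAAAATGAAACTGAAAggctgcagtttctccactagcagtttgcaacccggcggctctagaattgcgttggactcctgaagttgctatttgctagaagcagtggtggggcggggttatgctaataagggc

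**Figure D3:**
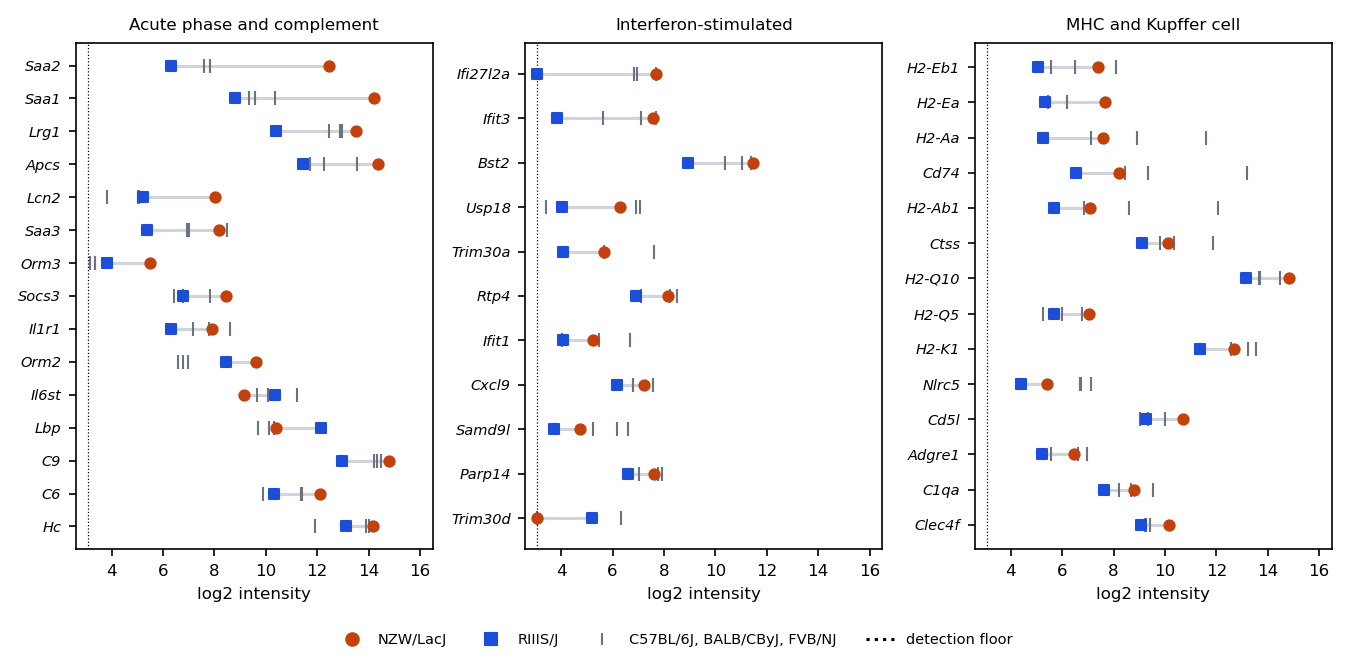
Log2 intensity of the members at least 2-fold apart in the acute phase and complement lists, the interferon-stimulated list, and the MHC and Kupffer cell lists. Orange circles are NZW/LacJ, blue squares RIIIS/J, grey ticks the other 3 strains, and the dotted line the detection floor. NZW/LacJ lies beyond all ticks for Saa1, Saa2 and Lcn2, whereas for Ifit3, Bst2 and the class II genes the RIIIS/J square lies at or below the ticks.

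Class II antigen presentation genes were higher in NZW/LacJ. All 7 detected members differed in that direction, 6 by at least 2-fold, with a median log2 difference of 1.66. RIIIS/J was the lowest of the 5 arrays in 6, where it was so in 23.9% of all genes. H2-Aa, the class II alpha chain, read 190 against 37.7 (5.03-fold), with 476, 141 and 3105 elsewhere. H2-Eb1, the beta chain of the E molecule, was 168 against 33.1 with 274, 89.4 and 47.1, and H2-Ea was 204 against 40.3 with 43.1, 73.6 and 73.6. H2-Ab1 was 135 against 50.6 and Cd74, the invariant chain, 297 against 93.7. Ctss, the protease that trims the invariant chain, read 1126 against 547, and H2-DMb2 (23.3 against 19.9) was the member not 2-fold apart. The further probe sets of H2-Aa, H2-Ab1 and H2-Ea were all higher by 1.15 to 3.83. FVB/NJ stood far above NZW/LacJ and RIIIS/J for H2-Aa, H2-Ab1 and Cd74 (9250), and its further H2-Aa probe sets read 580 and 8830. Probe sequences were not available, so the part of strain variants under the probes in these values was not tested. B cell markers summed to 141 in NZW/LacJ, 273 in RIIIS/J and 19822 in FVB/NJ. Ighm, the B cell heavy chain, is part of that sum and was lower in NZW/LacJ (49.2) than in RIIIS/J (177). Its further probe sets gave log2 differences of -4.19 and -0.14. It was the only 1 of 5 detected B cell markers to be 2-fold apart, and the list median was -0.04.

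The Y box CTGATTGG, a conserved element of class II promoters, was searched on both strands and is in capitals in the promoters of H2-Aa and H2-Eb1. Of the 6 higher genes 3 had a reference promoter and these 2 held it, as did 3.83% of all windows, and the 1 class II gene not 2-fold apart did not hold it. The kappa B site was found in 1 of 10 higher acute phase genes (Il1r1), in none of the lower ones and in 1 of 16 not apart, against 7.25% of all windows. The E box CACGTG was found in 1 of 6 higher, 1 of 3 lower and 3 of 9 other clock genes, against 6.02% of all windows.
H2-Aa, chr17:34287824-34288073, minus strand: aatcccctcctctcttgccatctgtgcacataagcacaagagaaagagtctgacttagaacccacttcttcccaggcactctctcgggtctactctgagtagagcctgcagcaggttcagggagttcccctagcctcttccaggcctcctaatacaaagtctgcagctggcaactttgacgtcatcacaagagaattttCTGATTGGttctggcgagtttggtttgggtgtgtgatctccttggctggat
H2-Eb1, chr17:34305617-34305866, plus strand: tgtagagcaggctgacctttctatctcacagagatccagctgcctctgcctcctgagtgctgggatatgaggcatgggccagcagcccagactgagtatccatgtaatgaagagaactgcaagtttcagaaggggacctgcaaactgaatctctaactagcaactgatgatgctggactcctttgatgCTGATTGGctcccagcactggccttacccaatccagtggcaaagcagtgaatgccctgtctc

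Class I genes followed with smaller differences. Of 18 detected members 17 were higher in NZW/LacJ, 4 by at least 2-fold and none lower by 2-fold, with a median of 0.33. RIIIS/J was the lowest of the 5 in 11, where it was so in 23.9% of all genes. H2-K1, a classical class I heavy chain, read 6585 against 2602, and 3 further probe sets were higher by 0.38 to 2.13. H2-Q10, a secreted liver class I protein, was 29015 against 9009, and H2-Q5 was 132 against 51.5. Nlrc5, the transactivator of class I genes, was 42.3 against 20.9, with both below 103 to 138 in the other strains. B2m, the light chain, was 35819 against 29568. The haplotypes of these strains differ and class I genes are alike in sequence, so probe sets of this family may read several copies.

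Markers of Kupffer cells, the resident macrophages of the liver, moved with these genes. Of 14 detected markers 13 were higher in NZW/LacJ, 4 by at least 2-fold, with a median of 0.58. RIIIS/J was the lowest of the 5 in 10, where it was so in 23.9% of all genes. The summed intensity of all 15 measured markers was 11747 in NZW/LacJ, 6361 in RIIIS/J and 10100 to 15026 in the others. Cd5l, a macrophage secreted protein, read 1678 against 614, Clec4f, a Kupffer cell lectin, 1152 against 537, C1qa, a complement subunit made by macrophages, 442 against 195, and Adgre1 (F4/80) 88.6 against 37.3. Fewer cells of a type and less RNA per cell cannot be told apart in such samples, and the part of the macrophage genes in the immune differences was not tested. The neutrophil genes S100a8 (21.8 against 10.3) and S100a9 (35.9 against 9.45) were low on both arrays. None of the 3 detected T and NK cell markers, 15 endothelial markers or 13 stellate cell markers was 2-fold apart.

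Guanylate-binding proteins and immunity-related GTPases, which attack vacuoles of intracellular pathogens, were mixed, with 3 of 12 higher and 2 lower. Iigp1 read 11332 in NZW/LacJ and 5210 in RIIIS/J and Gbp3 60.7 against 29.1. Gbp7 was the opposite, 15.9 against 105 with 202 to 275 in the other strains and a second probe set at a log2 difference of -2.71, so that like Gm4951 it was low in NZW/LacJ alone. In the p200 family of DNA sensors Mndal read 195 in NZW/LacJ and fell short of the floor in FVB/NJ (6.38) and RIIIS/J (6.84), a difference of at least 23.2-fold. Ifi202b, another member, was low on both (10.5 against 27.3).

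Genes that adult male livers express more than female livers were higher in NZW/LacJ, although all samples came from males. Of 23 detected members of the male-biased list 21 were higher in NZW/LacJ, 9 by at least 2-fold and 1 lower, with a median log2 difference of 0.47. NZW/LacJ was the highest of the 5 arrays in 15 of the 23, where it was so in 17.9% of all genes. Gstp3, a pi-class glutathione transferase, was 3271 against 230, but FVB/NJ was higher than both at 18002. Susd4, a complement regulator, read 1659 against 195 with 41.3 to 435 elsewhere, and Elovl3, a fatty acid elongase, 7878 against 1096 with 6203, 4264 and 676. Obp2a, a lipocalin, was 811 against 159 and at 11.1, 6.38 and 7.22 in the other strains, so both arrays stood above them. Serpina12 (vaspin) was 11999 against 3525 and Ugt2b38, a glucuronosyltransferase, 3468 against 1056, both also above the other 3 on both arrays. Etnppl, the phospholyase of phosphoethanolamine, was the member lower in NZW/LacJ (1913 against 9336, second probe set -4.32).

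Genes with higher expression in female livers went the other way for those that were apart. Of 25 detected members 8 were at least 2-fold lower in NZW/LacJ and 1 higher, with a median of -0.23. Cyp2b10, a hydroxylase induced through the receptor CAR, read 62.2 against 387, with 308, 392 and 925 elsewhere and both further probe sets at log2 differences of -3.75 and -3.62. Its neighbour Cyp2b9 was under the floor in NZW/LacJ and at 61.2 in RIIIS/J. Cyp17a1, of steroid synthesis, was under the floor against 58.4, and Ntrk2, a neurotrophin receptor, was 26.7 against 368. Vldlr, a lipoprotein receptor, read 15.4 against 170, but its 4 further probe sets were lower with log2 differences of only -0.84 to -0.03. Cyp2c39 was the exception, at 157 against 19.5, with 6.25, 248 and 631 elsewhere. In the growth hormone axis, Cish (267 against 101) and Igfbp3 (535 against 114) were higher in NZW/LacJ with Socs3, and no member of 17 was 2-fold lower. As a whole that list was not shifted, with 8 of the 17 members higher in NZW/LacJ and a median of -0.01.

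**Figure D4:**
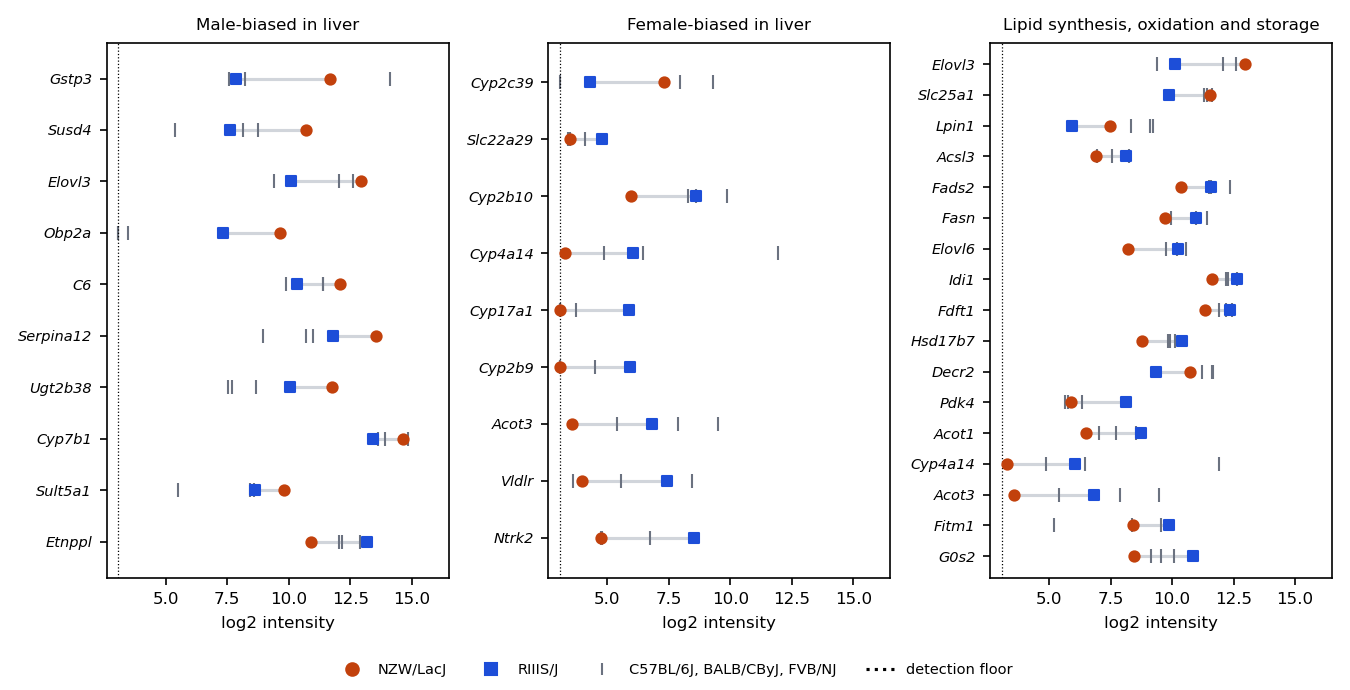
Log2 intensity of members at least 2-fold apart in the male-biased list, the female-biased list, and the lists of lipid synthesis, oxidation and storage. Orange circles are NZW/LacJ, blue squares RIIIS/J, grey ticks the other 3 strains, and the dotted line the detection floor. NZW/LacJ lies to the right in 9 of the 10 male-biased genes and to the left in 8 of the 9 female-biased genes.

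Cholesterol genes differed towards RIIIS/J, while other lipid lists were mixed. In cholesterol synthesis and sterol regulation 20 of 25 detected members were lower or equal, 3 by at least 2-fold and none higher, with a median log2 difference of -0.51. NZW/LacJ was the lowest of the 5 arrays in 12 and RIIIS/J the highest in 14, where 17.7% and 18.3% of all genes were. Hsd17b7, a reductase late in the pathway, read 433 against 1336 with 974, 916 and 1114, and both further probe sets gave log2 differences of -2.43 and -1.84. Idi1, the isopentenyl isomerase, was 3113 against 6362 and Fdft1, squalene synthase, 2557 against 5281, each lowest in NZW/LacJ. Averaged over probe sets both fell under 2-fold, with log2 differences of -0.63 for Idi1 and -0.48 for Fdft1. After quantile normalisation they were just under it, at -0.99 and -0.97.

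In fatty acid and triglyceride synthesis 4 of 29 members were at least 2-fold lower and 3 higher. Fasn, fatty acid synthase, read 829 in NZW/LacJ and 1991 in RIIIS/J with 2725, 986 and 2037, and Elovl6, which elongates its product, 299 against 1195 with 874 to 1525, where 2 further probe sets differed by -2.07 and -1.31. Fads2, the delta-6 desaturase, was 1307 against 3028 with 2931 to 5207. Slc25a1, the citrate exporter of mitochondria, was instead 2974 against 930, where RIIIS/J stood below 2491 to 3196 in the others. Lpin1, a phosphatidate phosphatase, was 178 against 60.6, with both arrays below 322 to 606 elsewhere.

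Fatty acid oxidation had 4 of 40 members at least 2-fold lower in NZW/LacJ and 1 higher, with a median of -0.27. NZW/LacJ was the lowest of the 5 arrays in 22, where it was so in 17.7% of all genes. Pdk4, the kinase that shuts pyruvate dehydrogenase in fasting, read 59.5 against 277 and only RIIIS/J was high, since the others had 50.8 to 80.0. Acot1, a cytosolic acyl-CoA thioesterase, was 90.7 against 426 and Acot3, a peroxisomal one, 11.8 against 113 with 42.2 to 718 elsewhere. Cyp4a14, a fatty acid omega-hydroxylase, was 9.71 against 65.7, while C57BL/6J held 3880. Decr2, the peroxisomal dienoyl-CoA reductase, was the higher member (1718 against 644). Cpt1a, the gate of mitochondrial import, was 1141 against 1908, under 2-fold.

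Of 14 lipid droplet genes, G0s2, the inhibitor of adipose triglyceride lipase, was 352 against 1863 with 573 to 1075 elsewhere, and Fitm1 was 342 against 936. Apob, the core protein of very low density lipoprotein, gave 13752 against 41565, but its other probe set gave a log2 difference of 0.19. Angptl8, an inhibitor of lipoprotein lipase that feeding raises, was 315 against 675. Over the 22 apolipoprotein and lipid transport genes the median was -0.04, with 2 lower and none higher by 2-fold. In bile acid synthesis and transport 3 of 29 genes were higher and 1 lower in NZW/LacJ, with a median of 0.12. Cyp7b1, the oxysterol hydroxylase, read 25659 against 10929 with a second probe set at 1.29, Amacr, a racemase of side-chain oxidation, 2873 against 978, and Abcb11, the bile salt export pump, 4992 against 2296. Abcc2, the canalicular conjugate pump, was the reverse at 1319 against 4878, where RIIIS/J was the highest of the 5. Cyp7a1, the rate-limiting enzyme of the classical route, was 2217 and 1750 on the arrays compared and 5113 to 6814 in the other strains.

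Genes of drug and steroid metabolism differed in both directions. Among 28 detected Cyp1 and Cyp2 genes 7 were at least 2-fold lower in NZW/LacJ and 3 higher, with a median of 0.05. Besides those above, Cyp2c68 was 7840 against 2763, Cyp2j6 927 against 365 and Cyp2d13 1315 against 3771. Cyp3a11 (34526 against 35633) and Cyp2e1 (40011 against 46189), both major drug hydroxylases, were close. Of 22 glutathione transferase genes 4 were higher and 4 lower. The theta-class genes Gstt1 (4573 against 9890), Gstt2 (1120 against 2634) and Gstt3 (162 against 375) were each lowest in NZW/LacJ of the 5 strains. The mu-class genes Gstm3 (271 against 71.2) and Gstm5 (284 against 70.0) were lower in RIIIS/J, and for Gstm3 the other strains held 1595 to 2629.

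Of 37 aldo-keto, carbonyl and alcohol reductases 5 were lower in NZW/LacJ and 3 higher. Within the Akr1c family Akr1c14 (10274 against 3903) and Akr1c19 (8589 against 3543) were higher in NZW/LacJ together with Akr1c18, opposite to Akr1c12. Aldh3a2, the fatty aldehyde dehydrogenase, was 889 against 2598. Of 11 carboxylesterases 3 were higher, among them Ces1g (5183 against 2355) and Ces2e (3166 against 1533), both with NZW/LacJ highest of the 5, and none was 2-fold lower, with 9 of the 11 above 0 and a median of 0.25. Of 18 glucuronosyltransferases and sulfotransferases 2 were higher and none lower by 2-fold, with a median of 0.23. Hao1, the glycolate oxidase of peroxisomes, which lies outside the lists and was picked for its value, read 7392 against 418, with 4897 to 8168 in the other strains. Paqr9, a membrane receptor family member picked in the same way, was 429 against 5859 with 2299 to 3552, and Nnmt, nicotinamide methyltransferase, 712 against 5114 with 2913, 424 and 273.

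In urea cycle and amino acid catabolism RIIIS/J was the highest of the 5 arrays in 23 of 41 genes, where it was so in 18.3% of all genes. By 2-fold 3 were lower in NZW/LacJ and 1 higher, which is close to the 3.06% and 4.35% of all genes, and the median was -0.23. Oat, ornithine aminotransferase of the cells around the central vein, read 7536 against 24434 with 10697 to 20383, and Got1, an aspartate aminotransferase, 3010 against 7056. Csad, of taurine synthesis, was 5073 against 2129. Of 26 genes of gluconeogenesis, glycolysis and insulin action, 1 was 2-fold lower and none higher, with a median of -0.23. That gene was G6pc, glucose 6-phosphatase, the last step of glucose release, at 1243 against 5504 with 1542 to 2036, so that RIIIS/J stood above the rest. Of 28 pericentral genes 6 were lower in NZW/LacJ and 2 higher, the lower ones including Lhpp (474 against 1351) and the dioxin receptor Ahr (554 against 1285), and of 19 periportal genes 4 were lower and 1 higher. Glul, glutamine synthetase of the last pericentral cells, was 4947 against 5831.

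Some stress genes were low in RIIIS/J. Egr1, an immediate early transcription factor, read 705 in NZW/LacJ and 20.4 in RIIIS/J (34.6-fold) with 791, 267 and 452 elsewhere, and it was the only 1 of 18 detected immediate early genes to be 2-fold apart. Hspa1b, an inducible HSP70, was 1718 against 135 (12.7-fold) with 644, 1540 and 1851, and both further probe sets were higher by 2.79 and 3.59. Hspb1 (254 against 42.6) and Cryab (64.8 against 25.3), small heat shock proteins, were the other members at least 2-fold higher, and Hspa4l (48.4 against 109) was lower. Of all 25 detected heat shock genes 8 were higher in NZW/LacJ, and the list median was -0.24. Hmox1, heme oxygenase, was 134 against 22.2 with 123 to 373 elsewhere, Trib3, a pseudokinase of the stress response, 312 against 65.7, and Gpx3, a plasma glutathione peroxidase, 136 against 37.9. For Egr1, Hspa1b, Hspb1, Hmox1 and Gpx3 RIIIS/J was the lowest of the 5 strains. The lists of stress genes did not share that direction as a whole. Of 19 detected Nrf2 target and glutathione synthesis genes, 3 were at least 2-fold higher and none lower. Only 6 of the 19 were higher at all, with a median of -0.12. NZW/LacJ was the lowest of the 5 in 8, where it was so in 17.7% of all genes. Of 26 amino acid and ER stress genes 1 was 2-fold higher and none lower, with a median of 0. Metallothioneins and zinc transporters (22 genes), oxidative phosphorylation (41) and the proteasome (35) had no gene 2-fold apart.

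**Figure D5:**
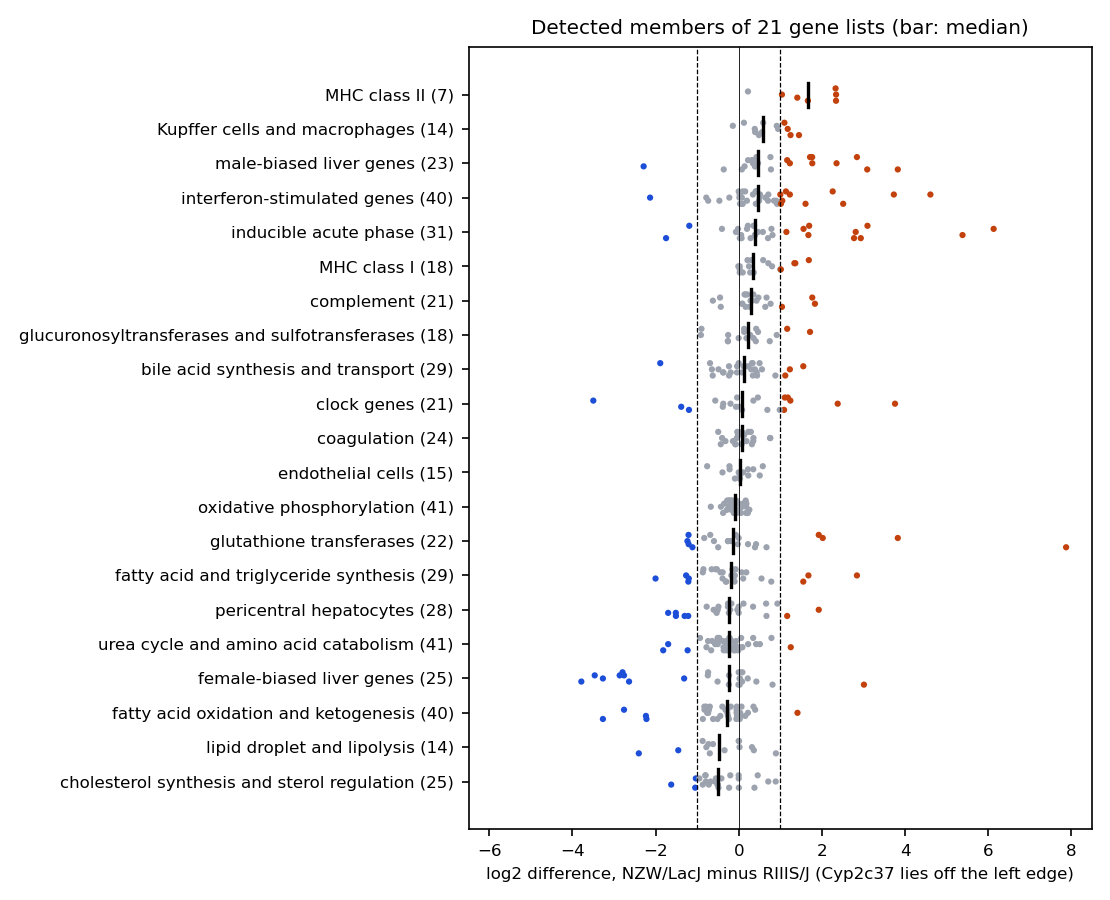
Log2 difference, NZW/LacJ minus RIIIS/J, of each detected member of 21 gene lists (number of members in brackets), with a black bar at each median. Orange points are at least 2-fold higher and blue points at least 2-fold lower in NZW/LacJ, and the dashed lines mark 2-fold. Medians run from 1.66 for MHC class II to -0.51 for cholesterol synthesis, and Cyp2c37 lies off the left edge.

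Genes that are next to each other in the reference gene order sometimes differed together. Among 11231 detected genes placed in that order, 832 were 2-fold apart, and 97 of them lay in 46 runs of 2 or more neighbours with the same direction. With 4.35% of all genes compared higher and 3.06% lower, some runs would arise in any order. How many of the runs go beyond that was not tested. Only 4 runs had 3 or more genes. The class II genes H2-Ab1, H2-Aa, H2-Eb1 and H2-Ea formed a run of 4 that was higher in NZW/LacJ, and Gstt3, Gstt1 and Gstt2 a run of 3 that was lower. Armcx6 (17 against 7.25), Armcx3 (116 against 54.8) and Armcx2 (44.0 against 17.4), armadillo-repeat genes of the X chromosome, were higher, by 2.53-fold for Armcx2, 2.12-fold for Armcx3 and at least 2.02-fold for Armcx6, whose RIIIS/J value was not above the floor. 4833420G17Rik, 3110070M22Rik and Tmem267 (253 against 22.3) were higher as well. Tmem267 was low in RIIIS/J alone, with 195 to 562 elsewhere, whereas 3110070M22Rik was high in NZW/LacJ alone (39.7, with 9.68 to 12.8 on the other 4). Among the 42 runs of 2 genes, Capn8, a stomach calpain found only in NZW/LacJ (181), stood beside Susd4, Setd4 beside Cbr1, and Saa1 beside Saa2. In a stretch of the Trim family Trim34a and Trim12a were lower in NZW/LacJ and the next genes Trim12c (229 against 65.0) and Trim30a were higher. Whether such runs go with copy number was not tested.

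For genes with more than 1 detected probe set the probe sets did not always tell the same story. Of the 490 higher genes 203 had a further detected probe set, all further ones had the same sign in 156, none did in 21, and a further one also passed 2-fold in 79 (38.9%). Of the 344 lower genes 156 had one, with 89, 37 and 59 (37.8%). The largest conflict was Pdxdc1, a decarboxylase-like gene, where the brightest probe set read 454 in NZW/LacJ and 9.79 in RIIIS/J, while another read 6.16 against 451. BALB/CByJ shared the RIIIS/J state at the first (5.92). In 4833420G17Rik (466 against 58.5) the further probe sets ran from 0.00 to 4.09, and in Chic1 (300 against 39.3), a membrane protein, the other gave -0.25. On the lower side Trim34a (7.44 against 64.5) had another probe set at 0.42, Appbp2os (16.4 against 113) at 0.07, and Prkd3 (205 against 1338), a protein kinase, had further ones from -0.33 to 0.92. In Rpgrip1, a ciliary gene read at 335 and 13, the second probe set was at 9.84 and 9.72. In 4833420G17Rik, by contrast, 2 of the further probe sets gave 3.37 and 4.09, more than the brightest.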

How the data were processed

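Liver RNA of 5 mouse strains, 1 array each, was measured on a whole-genome Affymetrix array. The authors deposited a table of linear intensity values for 45101 probe sets, made with GCRMA after GCOS, according to the labels (per the submitters' processing notes), whose versions and settings are not given in the sources used here. GCRMA sets dim probe sets to near-constant values. Of all genes compared, 6.59% had exactly equal values on both arrays, but equal values between arrays were not confined to dim probe sets. Cbr1 read 1343.11 in both C57BL/6J and RIIIS/J, and Reep3 read 3506.47 in C57BL/6J, BALB/CByJ and FVB/NJ. The origin of equal values was not tested. Probe sets were named by platform annotation, of which 34958 had 1 gene, 932 several and 9211 none, and 34754 matched RefSeq symbols. The log2 of each deposited value was taken with no further normalisation (column medians 8.81 in NZW/LacJ and 8.78 in RIIIS/J, 8.35 to 8.85 over all 5). The floor replaced anything dimmer, which turns a fold that involves it into a minimum. Array number limits the precision.

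With 1 array a strain no test was run. Named genes were, in each direction, the 12 largest measured differences and 6 largest bounds among genes whose probe sets had the same sign, the 3 largest left out by that condition, list members 2-fold apart and runs of 3 or more neighbours. Hao1, Paqr9, Nnmt, Cxcl1 and Capn8 were chosen after their values were seen, as were the list members shown as under 2-fold. The members and the 58 gene lists were chosen with earlier results of these data known. The acinar pancreas list, 37 of whose 59 genes were measured, was set aside from counts. Alternatives were another floor, no floor, the mean of probe sets, fewer probe set types, quantile and loess normalisation, a 4-fold threshold, acinar genes kept and a further probe set in support. Scripts were tested on simulated data, and ran under matplotlib 3.10.9, pandas 2.3.3, numpy 2.4.6, statsmodels 0.14.6, scipy 1.17.1 and Python 3.11.15.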

Additional observations from a re-analysis of the deposited data

Results flagged for a closer look

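The acinar pancreas genes were left out of the counts of genes apart, and 27 of the 37 measured were at least 2-fold higher in RIIIS/J. Of the 30 above the floor 20 were so in RIIIS/J alone, hence their place among the detected genes was set by the array where they are high and their differences are bounds. Cela2a, an elastase, read 15433 in RIIIS/J and 14.9 in NZW/LacJ.

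Probe sets that the annotation gives no gene or several genes were also outside the comparisons. Of 10092 such probe sets 3838 were detected, and 371 (9.67%) were at least 2-fold apart, 165 higher and 206 lower in NZW/LacJ.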

How the results depend on the processing

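The counts of 490 higher and 344 lower genes stayed within 1.5 times under a stricter floor at the 99th percentile (389 and 279), no floor (509 and 355), averaging over all probe sets per gene (355 and 247, of which 326 and 200 were shared), without _s_at, _x_at and _a_at probe sets (416 and 310), quantile normalisation (490 and 328), loess (470 and 349) and with acinar genes kept (490 and 371). They fell to 120 and 76 at 4-fold, and to 79 and 59 where a further probe set also had to pass 2-fold. Requiring both arrays above the floor, an alternative chosen after seeing the data, gave 451 and 316. Of 195 named genes 157 to 195 kept their direction and 2-fold difference under the first 6 of these. Values were lacking for 31 of them without _s_at, _x_at and _a_at probe sets and for 11 at the stricter floor. The 1 reversed value was Trim34a, at a log2 difference of 0.42 without _s_at, _x_at and _a_at probe sets. That setting also lowered the higher acute phase genes from 10 to 6, the higher class II genes from 6 to 3, the lower female-biased genes from 8 to 5, and the higher heat shock genes and the lower clock genes from 3 to 1 each. Quantile normalisation lowered the lower cholesterol genes from 3 to 1, and the mean of probe sets the higher interferon-stimulated genes from 10 to 6, the higher clock genes from 6 to 2 and the higher transporters from 3 to 1. The causes were not tested. No paired analysis was possible because there was only 1 array per strain. Without replicates none of these settings measures how strains differ beyond these pools, and dim genes near the floor carry the least information.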

Other observations

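Other gene groups held single genes that differed. Of 21 serpins, secreted protease inhibitors and hormone carriers, 2 were at least 2-fold higher and 2 lower in NZW/LacJ. Serpina6, the carrier of corticosteroids, read 3048 in NZW/LacJ and 9851 in RIIIS/J, with 7052 to 11489 in the other strains, so that NZW/LacJ alone was low. Serpina7, the carrier of thyroxine, was 398 against 123, and RIIIS/J was the lowest of the 5. Serpinb1a, an inhibitor of neutrophil proteases, was 26.9 against 198, with BALB/CByJ under the floor at 6.69.

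Of 32 uptake and efflux transporters 3 were higher and 4 lower. Slc22a5, the carnitine importer, read 80.9 in NZW/LacJ and 353 in RIIIS/J with 337 to 517 elsewhere, and a second probe set gave a log2 difference of -1.11. Among 38 nuclear receptors and liver transcription factors 1 was higher and 2 lower, and Cebpa, a hepatocyte transcription factor, was 2630 against 1215 with RIIIS/J alone low. Of 21 cell division genes Rrm2, a ribonucleotide reductase subunit, was 60.3 against 25.7 and Ccnd1, cyclin D1, 77.0 against 166, while FVB/NJ was the highest for both (251 and 814).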
